A study of Mus musculus with 8 samples.

Results

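Nrf2 and antioxidant defence genes were examined in lung neutrophils during *S. pneumoniae* pneumonia. They comprise 36 genes listed by name, from the transcription factor Nrf2 (gene Nfe2l2) and its inhibitor Keap1 to the enzymes of the heme oxygenase, thioredoxin, peroxiredoxin, glutathione, superoxide dismutase and catalase systems, and the rule that lists them uses no measured value, although it was written with earlier results of these data known. A row was matched for 34 of the 36 among the 24625 rows of the array, each gene on 1 row, while Txnrd2 and Prdx2 were not analysed here. In resting cells Keap1 holds Nrf2 in the cytoplasm and passes it to the proteasome. Oxidants and electrophiles modify Keap1, Nrf2 then accumulates, pairs with a small Maf protein and binds the antioxidant response element in the promoters of detoxifying genes. Neutrophils make superoxide and hydrogen peroxide to kill bacteria, and these systems limit the damage to the neutrophil itself and to the tissue around it.

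Neutrophils came from lungs of wild type (WT) mice aged 6 to 12 weeks per the labels. The methods name C57BL/6J mice matched for age and sex, and give a narrower age range than the labels. The left lung had received either PBS (4 samples) or a suspension of *S. pneumoniae* in PBS (SP, 4 samples) through the trachea, at 2.3 µl per g in both groups, and cells were taken 24 h later. All mice had the same genotype and both groups were instilled, so that no sample came from an untouched lung. Cells were pulled from enzymatic digests of the lungs on magnetic beads against Ly6G, and purity was examined under the microscope in the pneumonia samples only. There the methods report that nearly all cells were neutrophils. The few others usually looked like alveolar macrophages and rarely like eosinophils. Ly6G mRNA was high in every sample, per the methods. Each sample was hybridised to 1 Affymetrix Mouse Gene 1.1 ST array, and the values are log2 intensities after robust multi-array averaging. The study describes each sample as coming from a mouse, so that p-values measure the spread between such samples. With 8 arrays, their number limits the precision of every comparison.

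The promoters of the genes were searched for the core of the antioxidant response element, spelled TGACNNNGC, on both strands of the RefSeq windows of GRCm38.p6 that run from 250 bases before to 50 bases after each start. A match was found in at least 1 window of 10 of the 29 genes that had one (34.5%), compared with 14% of the 27025 genes with a window and 12.4% of all 32851 windows. These 10 were Nfe2l2, Gclm, Srxn1, Txnrd1, Me1, Sod1, Blvra, G6pdx, Pgd and Prdx1. The overlapping AP-1 letters TGANTCA were present in 4 of the 29 genes (13.8%) and in 8.97% of all genes, and in Me1 and Prdx1 they overlapped the core. The 6 genes shown here held a match and also differed between SP and PBS, with the match in capitals and each sequence read 5′ to 3′ on the strand of the gene. The coordinates are those of the whole promoter window, of which the 25 bases around the match are printed. A match in capitals that ends in GTCA is the core on the opposite strand.
Nfe2l2 (chr2:75704614-75704913, minus strand): agcccaccTGACTCCGCcatgcccc
Gclm (chr3:122245307-122245606, plus strand): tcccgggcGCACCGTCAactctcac
Srxn1 (chr2:152105274-152105573, plus strand): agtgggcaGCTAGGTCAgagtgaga
Txnrd1 (chr10:82858956-82859255, plus strand): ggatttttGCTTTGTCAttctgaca
Me1 (chr9:86695865-86696164, minus strand): tgccgccgTGACTCAGCgcttctcg
Sod1 (chr16:90220512-90220811, plus strand): caaggtggGCGTGGTCAgactcagg
The first 4 of these genes were higher in SP and the last pair, Me1 and Sod1, were lower, so genes with the core were found in both directions. For Txnrd1 the match lay in 1 of its 3 windows, and for Me1 it was absent from another of its windows. Blvra, G6pdx, Pgd and Prdx1 also held a match and did not differ at the threshold used below, where 64.7% of the 34 genes differed. Of the 7 genes that were at least 2-fold higher in SP, only Txnrd1 held a match, and Hmox1 had no window. A match is a description of letters and not a bound site, and elements farther from a start were not searched.

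Array medians lay between 6.06 and 6.20 in PBS and between 5.78 and 5.91 in SP, and the median difference over all rows was 0.10 log2 units. The 3 Y-linked genes Ddx3y, Kdm5d and Uty, which female mice lack, read between 4.33 and 4.90 in all arrays and are used as a low reference level, while the sex of the mice studied is not stated, and the lowest group mean of any of the 34 genes was 6.91 (Blvra in PBS). The neutrophil label was checked on 11 marker genes, which averaged 12.25 to 12.50 in the PBS arrays and 11.69 to 12.84 in the SP arrays, with none at the Y-linked level. The brightest, Lcn2 and Retnlg, stood at 13.32 ± 0.089 and 13.36 ± 0.027 in PBS and at 13.54 ± 0.087 and 12.88 ± 0.35 in SP (SD, n = 4). Markers of other lung cells were also well above that level. The 27 markers of club cells, ciliated cells and alveolar epithelium averaged 10.97 to 11.62 in PBS and 8.998 to 9.97 in SP, and 20 of them were called at least 2-fold lower in SP. Among them, the 5 club cell markers averaged 12.83 to 13.29 in PBS and 10.70 to 11.58 in SP. In each PBS array the club cell mean was above the neutrophil mean. The brightest of the 27, the club cell gene Scgb1a1, stood at 13.63 ± 0.088 in PBS and 13.00 ± 0.036 in SP (SD, n = 4). The 9 endothelial markers averaged 10.34 to 11.38 in PBS and 8.64 to 9.80 in SP, while the 8 monocyte and macrophage markers averaged 8.38 to 9.32 in PBS and 8.73 to 10.19 in SP. Fewer cells of a type and less RNA per cell cannot be told apart in these samples.

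Of the 34 genes, 22 (64.7%) differed between SP and PBS with an adjusted p under the threshold of 0.05. This p comes, as do all adjusted p-values that follow, from limma with Benjamini-Hochberg adjustment over all 24625 rows. The background was high, since 44.1% of all rows passed the same threshold. The 22 divided evenly into 11 higher in SP (21.5% of all rows passed in that direction) and 11 lower (22.6% of all rows). At least 2-fold, which is 1 log2 unit, 7 genes were upregulated (20.6%, compared with 6.37% of all rows). These were Sod2, Hmox1, Nqo1, Slc7a11, Txnrd1, Keap1 and Prdx5. Another 4 genes, Ephx1, Me1, Cat and Gss, were downregulated at least 2-fold (11.8%), which is close to the 11.3% of all rows. The ranges of the groups did not overlap for 19 genes (55.9%, compared with 49% of all rows). These shares of all rows are also the background for the counts by role that follow. The median difference over the 34 genes was 0.01, next to 0.10 over all rows, and 16 genes lay above the row median and 18 below it. Relative to the row median, Keap1 and Prdx5 no longer reached 1 log2 unit, and the other 5 upregulated genes and all 4 downregulated genes did.

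Both the background and the division by direction moved with the scaling of the arrays. With arrays centred, 61.8% of the 34 genes passed, below the 74.1% of all rows, whereas with another quantile normalization 73.5% of the genes passed, above the 41.6% of all rows. The excess of passing genes over the background therefore held under the deposited scaling and the other quantile normalization but not with centred arrays. With each array centred on its median, 15 genes passed as higher and 6 as lower (71.4% higher, next to 77.9% of the calls over all rows). With another quantile normalization, 10 passed as higher and 15 as lower (40% higher, next to 47.2% over all rows). No gene that passed changed sign under either scaling. With arrays centred, 8 genes were at least 2-fold higher and 3 lower (2375 and 1896 of 24625 rows). Srxn1 (1.06) was then past 2-fold and Gss (-0.93) was not. With another quantile normalization, 6 were at least 2-fold higher and 5 lower (1878 and 2198 of 24625 rows). Gclc (-1.06) was then past 2-fold and Prdx5 (0.79) was not.

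**Figure D1:**
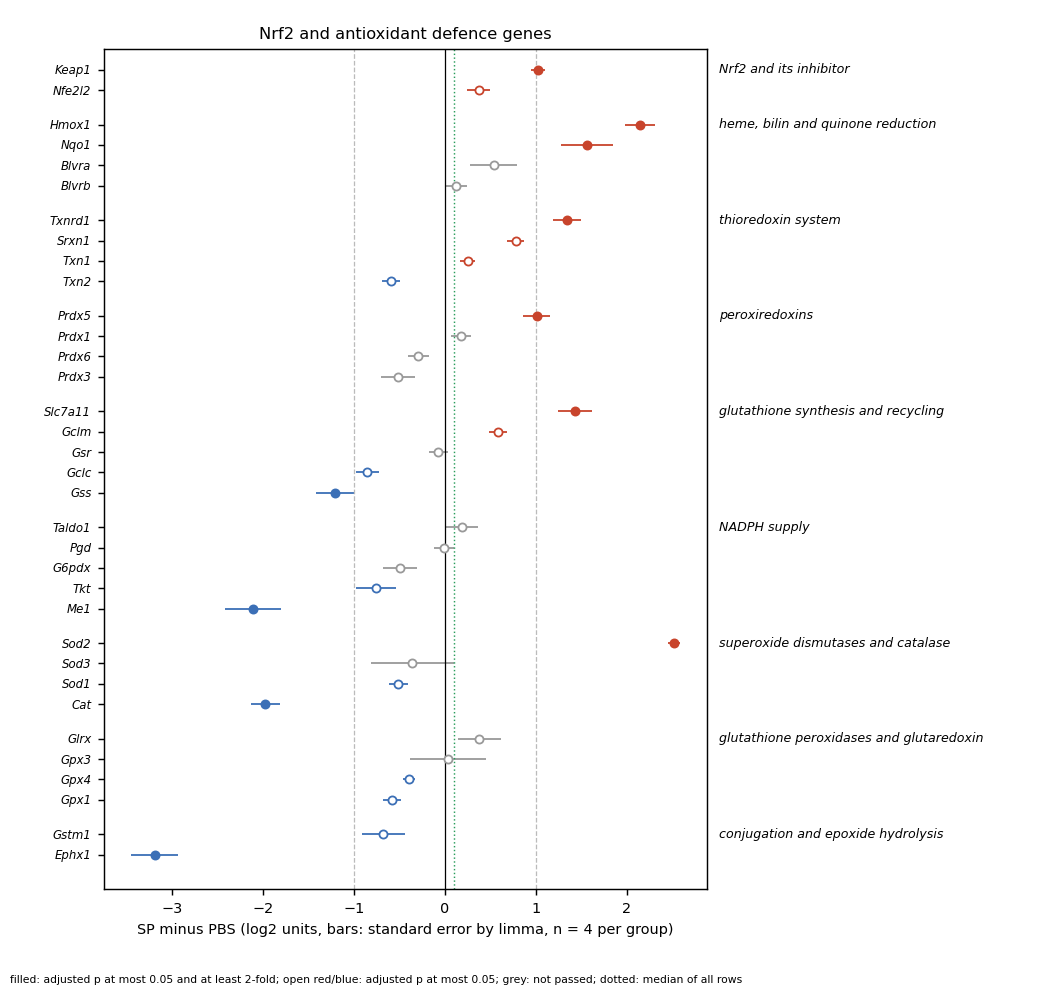
Difference between SP and PBS in log2 units for the 34 genes, grouped by role, with standard errors from limma and 4 samples per group. Filled points passed an adjusted p of 0.05 and were at least 2-fold apart (7 higher, 4 lower), open coloured points passed below 2-fold, grey points did not pass, dashed lines mark 2-fold and the dotted line marks the median of all rows at 0.10.

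The regulator and its inhibitor were both higher in SP. Nfe2l2, which encodes Nrf2, read 12.19, 12.05, 12.47 and 12.46 in PBS replicates 1 to 4 and 12.77, 12.82, 12.44 and 12.63 in SP replicates 1 to 4. The groups overlapped, because SP replicate 3 lay below PBS replicates 3 and 4. The difference was 0.37 ± 0.13 (SE), or 1.29-fold, with an adjusted p of 0.045, and it did not pass in 9 of 16 alternatives. Keap1, the adaptor that delivers Nrf2 to a ubiquitin ligase, read 7.39, 7.55, 7.59 and 7.43 in PBS and 8.51, 8.48, 8.62 and 8.45 in SP. Each SP array was above each PBS array and the replicates were tight. Keap1 was upregulated 2.04-fold (1.03 ± 0.077 log2 units, adjusted p = 3.3e-05), and the difference was 0.99 without PBS replicate 1 and 0.99 without SP replicate 3. The amount and activity of the Nrf2 protein were not measured.

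Among the 4 genes of heme, bilin and quinone reduction, 2 were upregulated at least 2-fold. Hmox1, the inducible heme oxygenase that opens heme to biliverdin, iron and carbon monoxide, read 10.27, 10.32, 10.71 and 10.89 in PBS and 12.62, 12.53, 13.00 and 12.64 in SP. All SP values were more than 1 log2 unit above the PBS values. The rise was 4.44-fold (2.15 ± 0.17 log2 units, adjusted p = 3.64e-05). Nqo1, a quinone reductase that is widely used as a readout of Nrf2, read 8.28, 8.12, 8.07 and 7.99 in PBS. The SP arrays read 9.56, 9.30, 10.64 and 9.21, so that 1 array, SP replicate 3, stood above the other 3. Nqo1 was upregulated 2.96-fold (1.56 ± 0.29, adjusted p = 0.00309), and by 1.24 log2 units without SP replicate 3. The biliverdin reductases that act after heme oxygenase did not pass. Blvra differed by 0.54 ± 0.26 (adjusted p = 0.124) with SP replicate 3 at 6.63 and the other SP arrays at 7.64 to 7.79. It passed in 4 of 16 alternatives, 1 of them without that array. Blvrb differed by 0.13 ± 0.12 (adjusted p = 0.381), and its sign turned under another quantile normalization. It passed as higher only with arrays centred (0.41, adjusted p = 0.025).

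All 4 thioredoxin system genes passed, 3 higher and 1 lower, and their groups did not overlap. Of all rows, 44.1% passed and 49% had groups without overlap. Txnrd1, the cytosolic thioredoxin reductase that passes electrons from NADPH to thioredoxin, read 9.81, 10.33, 10.31 and 10.28 in PBS and 11.46, 11.42, 11.86 and 11.38 in SP. The SP arrays were again higher throughout, with SP replicate 3 highest. Txnrd1 rose 2.54-fold (1.35 ± 0.16, adjusted p = 0.000259). Srxn1, the sulfiredoxin that restores overoxidised peroxiredoxins, rose from 10.12 ± 0.074 to 10.90 ± 0.16 (SD, n = 4), or 1.72-fold (adjusted p = 0.000324). Txn1, cytosolic thioredoxin, rose 1.19-fold (0.25 ± 0.081, adjusted p = 0.0366), a call that was lost in 10 of 16 alternatives. Txn2, the mitochondrial thioredoxin, fell from 10.19 ± 0.077 to 9.59 ± 0.16 (SD, n = 4), a 1.51-fold difference (adjusted p = 0.00151). The cytosolic and the mitochondrial thioredoxin lay on opposite sides of 0.

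Peroxiredoxins are thiol peroxidases, most of which are recharged by thioredoxin, and of the 4 measured only Prdx5 passed. It read 11.45, 11.13, 11.82 and 11.75 in PBS and 12.56, 12.54, 12.68 and 12.41 in SP. All SP arrays were above all PBS arrays. The difference of 1.01 ± 0.15 (2.01-fold, adjusted p = 0.0011) was at the 2-fold threshold, and it was 0.98 without PBS replicate 1, 0.87 without PBS replicate 2 and 0.96 without SP replicate 3. The other peroxiredoxins differed by 0.17 ± 0.11 for Prdx1 (adjusted p = 0.21), -0.52 ± 0.19 for the mitochondrial Prdx3 (adjusted p = 0.0551) and -0.29 ± 0.11 for Prdx6 (adjusted p = 0.0641). Prdx3 passed in 4 of 16 alternatives and Prdx6 in 3, and the sign of Prdx1 turned under another quantile normalization. Prdx1 passed as higher only with arrays centred (0.455, adjusted p = 0.0065).

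Of the 5 genes of glutathione synthesis and recycling, 2 rose and 2 fell. Slc7a11, the cystine importer of system xc-, supplies the cysteine for glutathione. It read 11.51, 11.60, 12.24 and 12.27 in PBS and 13.38, 13.30, 13.45 and 13.21 in SP. The PBS arrays fell into a lower and a higher pair, and the SP arrays were above both. Slc7a11 was upregulated 2.70-fold (1.43 ± 0.19, adjusted p = 0.000501). The subunits of glutamate cysteine ligase, which makes the first bond of glutathione, differed in opposite directions. The modifier subunit Gclm rose from 11.74 ± 0.15 to 12.32 ± 0.12 (1.496-fold, adjusted p = 0.00214), while the catalytic subunit Gclc fell from 12.33 ± 0.19 to 11.47 ± 0.18 (1.81-fold, adjusted p = 0.000982; SD, n = 4). Gss, glutathione synthetase, which adds the final glycine, read 9.37, 9.38, 9.16 and 9.10 in PBS and 7.94, 7.66, 8.68 and 7.88 in SP. Every SP array was below every PBS array, with SP replicate 3 nearest to them. Gss fell 2.32-fold (-1.21 ± 0.21, adjusted p = 0.00203). Gsr, the reductase that recycles oxidised glutathione, differed by -0.07 ± 0.11 (adjusted p = 0.58), with a turned sign when the arrays were centred. It passed as lower under another quantile normalization (-0.30, adjusted p = 0.0093).

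Of the 5 genes of NADPH supply, 2 fell and none rose. Me1, cytosolic malic enzyme, read 9.99, 10.32, 9.73 and 9.92 in PBS and 8.11, 7.49, 7.22 and 8.69 in SP. The SP arrays were lower throughout but spread over more than 1 log2 unit. The decrease was 4.32-fold (-2.11 ± 0.30, adjusted p = 0.00084). Tkt, the transketolase of the non-oxidative pentose phosphate pathway, fell 1.69-fold (-0.76 ± 0.22, adjusted p = 0.0228), with overlapping groups and a call that was lost in 6 of 16 alternatives. The dehydrogenases of the oxidative branch did not pass. G6pdx differed by -0.50 ± 0.19 (adjusted p = 0.058, passing in 6 of 16 alternatives), and Pgd by -0.01 ± 0.11 (adjusted p = 0.956) with a sign that turned in 4 of 16 alternatives. Taldo1, transaldolase, differed by 0.19 ± 0.18 (adjusted p = 0.379), and its sign turned under another quantile normalization.

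Superoxide dismutases and catalase held the largest rise among the 34 genes and one of the larger falls. Sod2, the mitochondrial manganese superoxide dismutase, read 10.47, 10.51, 10.37 and 10.51 in PBS and 12.99, 12.95, 13.04 and 12.96 in SP. The replicates of either group were tight and the groups far apart. Sod2 was upregulated 5.73-fold (2.52 ± 0.067, adjusted p = 4.37e-07), and leaving out any 1 sample moved the difference only between 2.49 and 2.53. Sod1, the cytosolic copper and zinc enzyme, fell from 11.50 ± 0.16 to 10.99 ± 0.13 (SD, n = 4; 1.43-fold, adjusted p = 0.00466). Sod3, the extracellular form, differed by -0.36 ± 0.46 (adjusted p = 0.519), and its SP arrays ranged from 6.39 in replicate 3 to 8.76 in replicate 4. Cat, catalase, which removes hydrogen peroxide, read 12.06, 12.12, 11.60 and 11.85 in PBS and 9.82, 9.79, 9.78 and 10.34 in SP. The SP arrays were more than 1 log2 unit below the PBS arrays, with SP replicate 4 highest among them. Catalase fell 3.93-fold (-1.98 ± 0.16, adjusted p = 4.975e-05).

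None of the 3 glutathione peroxidases among the 34 genes, nor glutaredoxin, reached 2-fold. Gpx1, the main cytosolic form, fell from 12.04 ± 0.14 to 11.46 ± 0.14 (1.496-fold, adjusted p = 0.00239), and Gpx4, which reduces lipid peroxides, fell from 10.38 ± 0.052 to 9.98 ± 0.044 (SD, n = 4; 1.32-fold, adjusted p = 0.00171). With arrays centred on their median, Sod1, Gpx1 and Gpx4 no longer passed (adjusted p = 0.0691, 0.0501 and 0.28). Gpx3, a secreted form, differed by 0.03 ± 0.41 (adjusted p = 0.952), with SP arrays from 9.63 to 11.45 and a sign that turned in 3 of 16 alternatives. Glrx, glutaredoxin, differed by 0.38 ± 0.23 (adjusted p = 0.203), and passed as higher only with arrays centred (adjusted p = 0.039).

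Both genes of conjugation and epoxide hydrolysis passed as lower. Ephx1, microsomal epoxide hydrolase, read 11.87, 12.11, 11.49 and 11.71 in PBS and 8.70, 8.41, 8.02 and 9.27 in SP. The highest SP array was more than 2 log2 units below the lowest PBS array. Ephx1 fell 9.16-fold (-3.20 ± 0.26, adjusted p = 4.3e-05), the largest change among the 34 genes. Gstm1, a glutathione transferase, fell 1.60-fold (-0.68 ± 0.24, adjusted p = 0.0485), with overlapping groups, an SP replicate 3 at 10.59 and a call that was lost in 8 of 16 alternatives. The Gstm1 gene belongs to a family of close copies, and probes shared with them could not be examined.

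**Figure D2:**
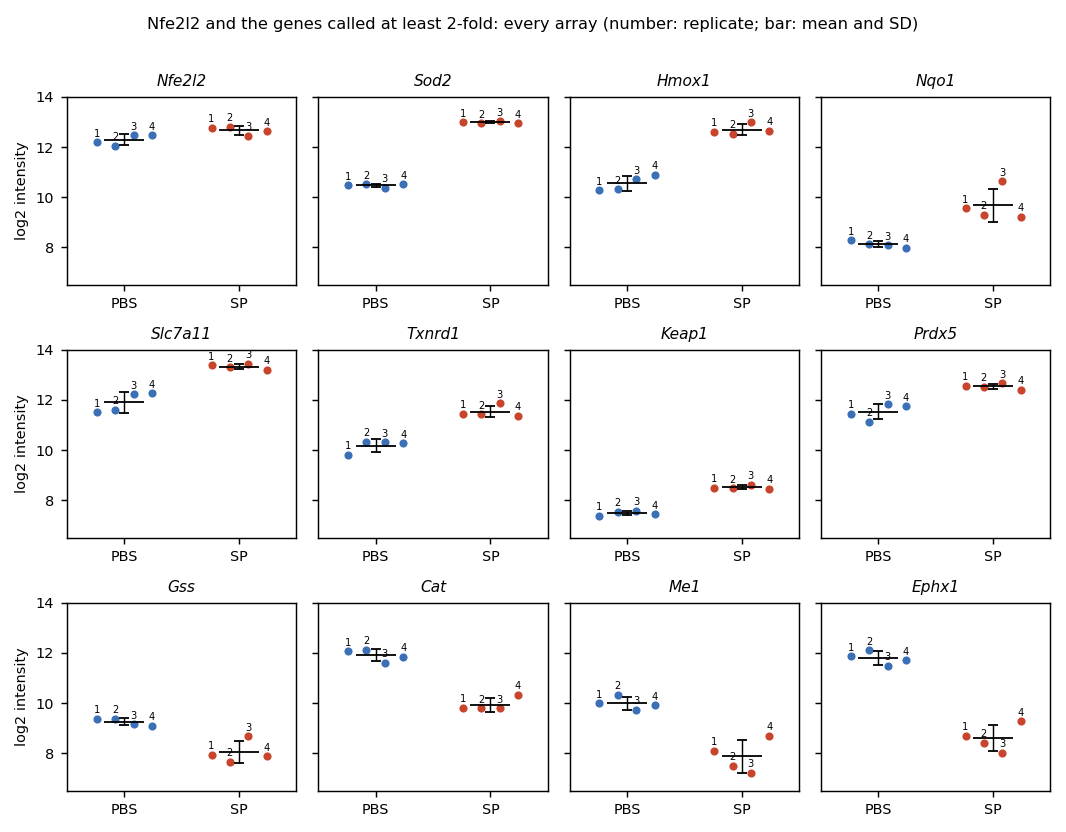
log2 intensity in every array for Nfe2l2 and the 11 genes called at least 2-fold, with replicate numbers, group means and SD (n = 4 per group). Only for Nfe2l2 do the PBS and SP points overlap, and SP replicate 3 stands above the other SP arrays for Nqo1 (10.64) and Gss (8.68).

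The order of the arrays within a group was compared with that of the markers of other lung cells. The epithelial marker mean was highest in PBS replicate 2 (11.62) and lowest in PBS replicate 3 (10.97), and in SP it was highest in replicate 4 (9.97) and lowest in replicate 3 (8.998). This mean pools several lists. In SP the club cell and both alveolar lists were highest in replicate 4, but the ciliated list was highest in replicate 2 (7.22, and 7.01 in replicate 4). Of the 11 genes that fell, 9 were highest among the PBS arrays in replicate 2, 8 were lowest in PBS replicate 3, and 6 were highest among the SP arrays in replicate 4, but only 4 were lowest in SP replicate 3 and 5 were lowest in SP replicate 1. In PBS, the endothelial mean was also highest in replicate 2 but lowest in replicate 4. The fibroblast, alveolar macrophage and B cell means were highest in PBS replicate 1. In SP, several other lists shared the order of the pooled epithelial mean. The endothelial, fibroblast, alveolar macrophage, and monocyte and macrophage means were all highest in replicate 4 and lowest in replicate 3. Ephx1, Me1 and Cat matched the epithelial mean at all 4 positions, while Tkt, Gpx1 and Gss departed from the PBS order. For Cat the lowest SP position was nearly a tie, at 9.784 in replicate 3 and 9.792 in replicate 2. Within the SP group Ephx1 read 9.27 in replicate 4 and 8.02 in replicate 3, and Me1 read 8.69 and 7.22. Of the 11 genes that rose, 10 were highest among the SP arrays in replicate 3, where the neutrophil marker mean was also highest (12.84), and 7 were lowest in SP replicate 4. Among the genes that rose, Nfe2l2 was the exception, with its lowest SP value in replicate 3. Of the neutrophil markers, Camp (10.94), Ltf (12.10) and Ngp (13.34) stood furthest above the other SP arrays in replicate 3. Csf3r was lowest there (12.67), and the remaining neutrophil markers were highest there, some by small amounts. Sod2 read 12.95 to 13.04 in the SP arrays, and the epithelial mean of these arrays spanned 8.998 to 9.97. The part of other cell types in the falls and in the rises was not tested.

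**Figure D3:**
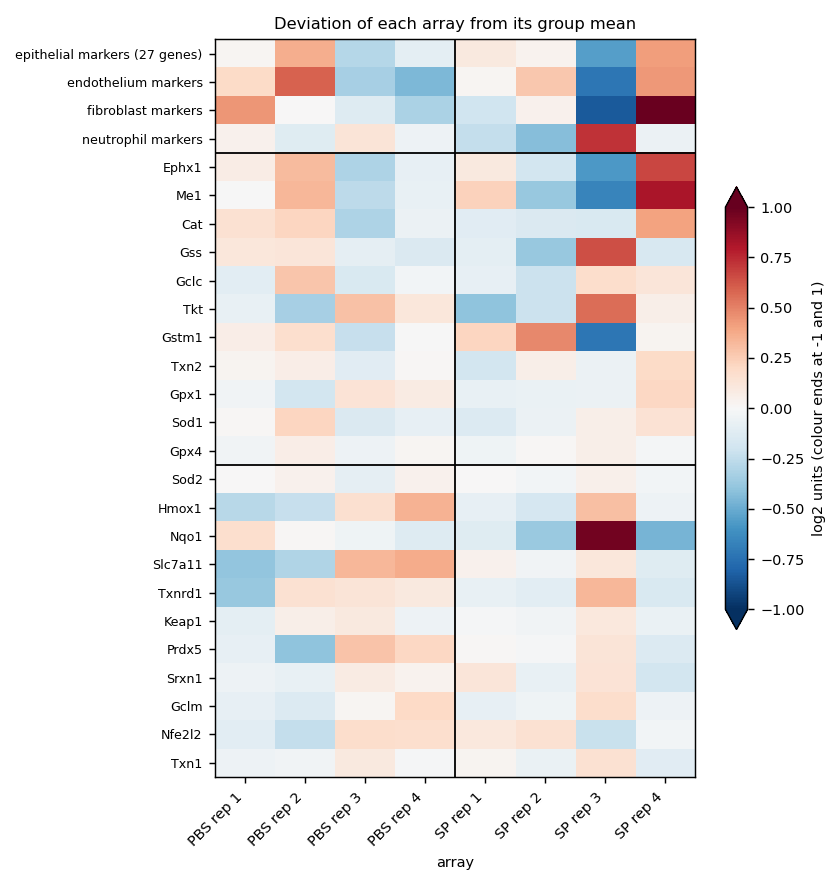
Deviation of each array from the mean of its own group, in log2 units, for 4 marker list means (top), the 11 genes that fell (middle) and the 11 that rose (bottom). Red is above and blue below the group mean. SP replicates 3 and 4 stand opposite each other for the epithelial, endothelial and fibroblast markers and for Ephx1 and Me1. Sod2 and Keap1 stay near 0.

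Other genes of the same pathways were taken from 3 lists, and 62 of 64 genes were matched, all except Prdx4 and Nnt. At the same threshold, 50 passed (80.6%, against 44.1% of all rows), 15 higher and 35 lower. At least 2-fold, 7 were higher (11.3%, against 6.37% of all rows) and 21 were lower (33.9%, against 11.3%). With arrays centred, 48 passed (77.4%, against 74.1% of all rows), and with another quantile normalization 47 passed (75.8%, against 41.6%). Their median difference was -0.67, compared with 0.10 over all rows, and the genes called at least 2-fold kept their sign under both other scalings of the arrays.

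Among 14 partners and regulators of Nrf2, the 3 small Maf genes were the ones upregulated at least 2-fold. Small Maf proteins are the partners with which Nrf2 binds DNA. Maff rose 5.52-fold (2.46 ± 0.32, adjusted p = 0.000514), Mafk 3.55-fold (1.83 ± 0.17, adjusted p = 8.64e-05) and Mafg 2.26-fold (1.18 ± 0.14, adjusted p = 0.000302). Bach2, a repressor that competes for the same partners, fell 3.05-fold (-1.61 ± 0.22, adjusted p = 0.000681). Its relative Bach1, the repressor of Hmox1, rose 1.93-fold (adjusted p = 0.00207) and was singled out after its value was seen. The B cell markers, a lineage in which Bach2 is well known, were all 5 called at least 2-fold lower in SP, and their mean was 8.10 to 9.07 in the PBS arrays and 6.03 to 7.37 in the SP arrays. The part of B cells in the Bach2 value was not tested.

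Of 20 further Nrf2 target genes, 18 passed (90%, against 44.1% of all rows). Of these, 5 were higher and 13 lower (21.5% and 22.6% of all rows). Abcc1, an exporter of glutathione conjugates, rose 5.39-fold (2.43 ± 0.17, adjusted p = 2.42e-05), and Osgin1 rose 4.35-fold (2.12 ± 0.29, adjusted p = 0.000681). The ferritin chains Fth1 and Ftl1, which store the iron that heme oxygenase frees, rose 1.24-fold and 1.51-fold (adjusted p = 0.00495 and 0.000179) and were named after their values were seen. The other 9 genes past 2-fold fell, led by the aldehyde dehydrogenase Aldh3a1 (7.38-fold, adjusted p = 7.23e-05) and the glutathione transferases Gsta3 (5.83-fold, adjusted p = 4.975e-05) and Gsta4 (5.23-fold, adjusted p = 1.29e-05). Aldh3a1 averaged 9.70 ± 0.47 in PBS and 6.82 ± 0.36 in SP (SD, n = 4). All 3 genes were highest in PBS replicate 2 and SP replicate 4, as were the epithelial and endothelial marker means. However, the genes were lowest in SP replicate 2 and not in SP replicate 3, and Gsta3 was lowest in PBS replicate 4. For Aldh3a1, SP replicates 2 and 3 were nearly equal (6.572 and 6.575).

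Of 28 other redox enzymes, 21 passed (75%, against 44.1% of all rows). Of these, 3 were higher and 18 lower (21.5% and 22.6% of all rows). Ggct, a cyclotransferase that releases 5-oxoproline during the breakdown of glutathione, rose from 6.01 ± 0.13 to 8.82 ± 0.33 (SD, n = 4), or 7.01-fold (adjusted p = 1.02e-05). Hmox2, the constitutive heme oxygenase, rose 2.20-fold (1.14 ± 0.14, adjusted p = 0.000338), and by 0.94 log2 units under another quantile normalization. The 3 largest falls among the 11 past 2-fold were Gpx8 (6.08-fold, adjusted p = 0.000152), the mitochondrial isocitrate dehydrogenase Idh2 (4.45-fold, adjusted p = 0.00163) and the glutathione transferase Gstt1 (4.19-fold, adjusted p = 0.00109). All 3 were lowest in SP replicate 3 and highest in SP replicate 4. These arrays had the lowest and highest epithelial mean, and also the lowest and highest endothelial and fibroblast means. In PBS only Gpx8 followed the epithelial mean at both ends, while Gstt1 was highest in replicate 1 and Idh2 was lowest in replicate 4.

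**Figure D4:**
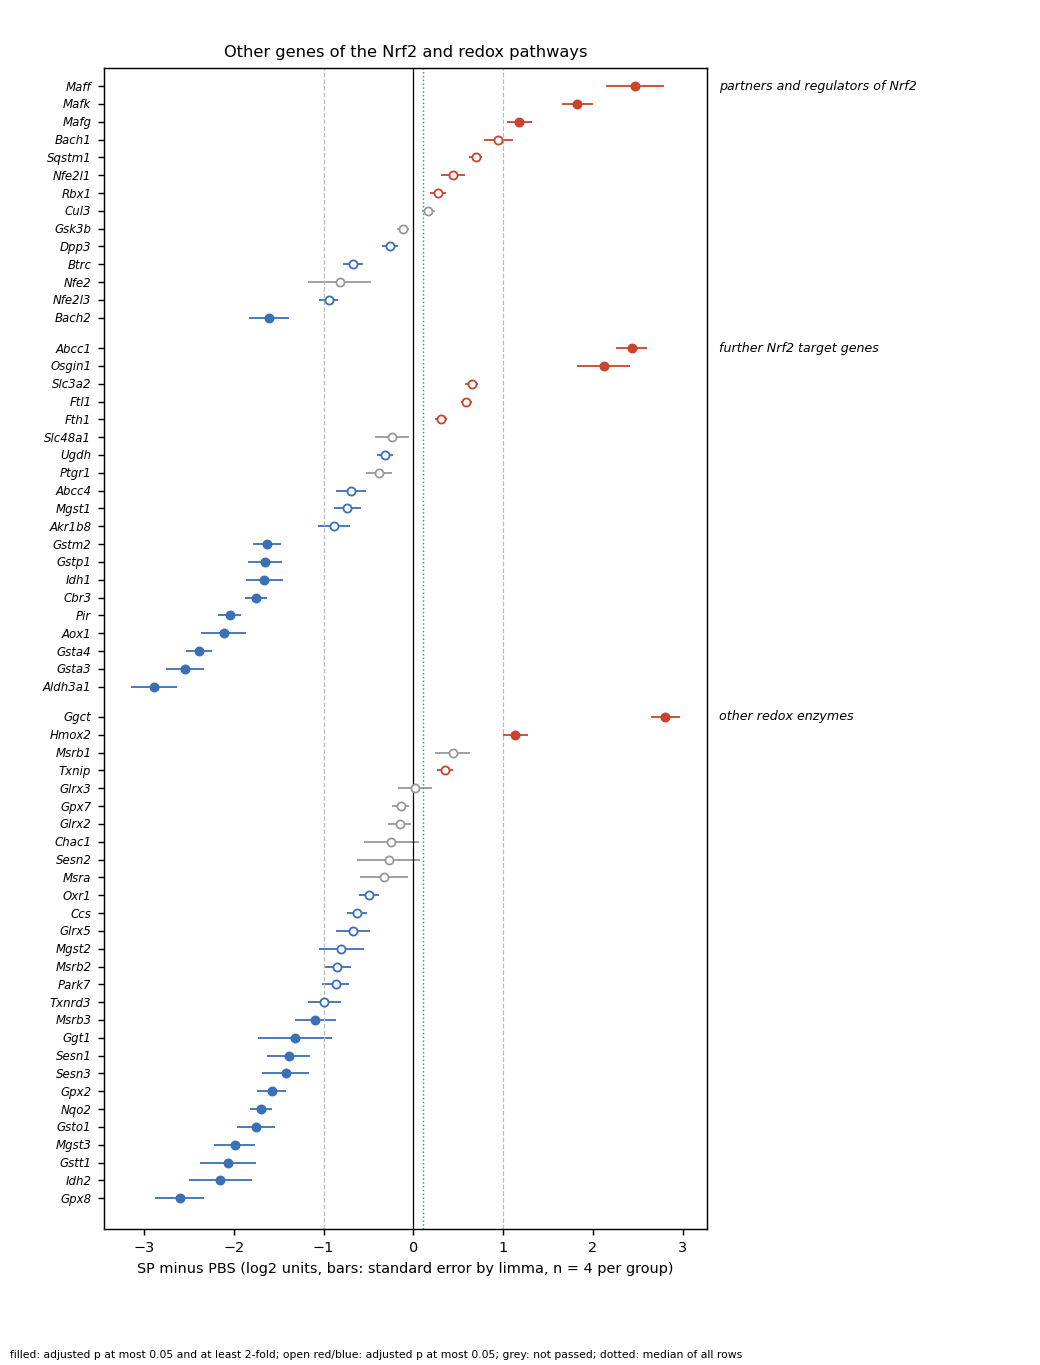
Difference between SP and PBS in log2 units for 62 further genes of the Nrf2 and redox pathways in 3 lists, with standard errors from limma (n = 4 per group). Filled points passed an adjusted p of 0.05 and were at least 2-fold apart, 7 to the right and 21 to the left, with the small Maf genes at the top of the first list.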

How the data were processed

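Per the methods, the authors corrected background, GC content and probe sequence, quantile normalized the arrays and summarised the probes of each gene by median polish (RMA), with custom tables from probeset to gene. The deposited values are therefore log2 intensities, relative within an array, and differences of bright genes may be compressed. Groups and replicate numbers follow the sample titles. No 2 arrays were identical. Row identifiers were paired with symbols through a RefSeq table of GRCm38.p6 (19915 of 24625 rows, 80.9%), and the genome build of the deposited mapping is not given in the sources used here.

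SP was compared with PBS over all rows by limma 3.58.1 in R 4.3.3 (lmFit and eBayes, no covariates, two-sided), and p-values were adjusted by Benjamini-Hochberg. The fit was first tested on simulated data. The rule for the 36 listed genes, the further lists and the tests were chosen with earlier results of these data known. Values in every array are given for genes called at least 2-fold, Nfe2l2 and Keap1, and of each further list the 3 largest rises and falls past 2-fold are named. A planned list of selenoproteins and the microRNA arrays were not analysed here. Alternatives were the one-way ANOVA named in the methods, an intensity-trended robust prior, a replicate block, array weights, centred arrays, another quantile normalization, dim rows left out, the mean over rows of a symbol, each of the 8 samples left out in turn, and limma treat for 2-fold calls. Unusual arrays were marked by Dixon's ratio above 0.829. Promoters were searched and figures drawn with Python 3.11.15.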

Additional observations from a re-analysis of the deposited data

Results flagged for a closer look

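The 34 genes were screened for single arrays far from the other 3 of their group by Dixon's ratio, over 68 groups of 4 samples. This marked 6 groups, and chance marks about 1 in 20. In SP replicate 3, Blvra was the lowest at 6.63 with the next array at 7.64, Txnrd1 was the highest at 11.86 with the next at 11.46, and Gclm was the highest at 12.50 with the next at 12.28. In SP replicate 4, Cat was the highest at 10.34 with the next at 9.82, and Gpx1 was the highest at 11.66 with the next at 11.40. In PBS replicate 1, Txnrd1 was the lowest at 9.81 with the next at 10.28. Among the SP arrays, replicate 3 had the lowest and replicate 4 the highest epithelial marker mean (8.998 and 9.97), as for the endothelial and fibroblast means. The part of this in the marked values was not tested.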

How the results depend on the processing

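Of 544 comparisons of a gene with one of its 16 alternatives, 475 kept the direction and the side of the threshold, 36 lost the call, 21 gained it and 12 changed sign. The same held in all 16 for 15 of the 34 genes, each of which had passed, and every change of sign was in a gene that had not passed. Under another quantile normalization these were Blvrb (-0.035), Prdx1 (-0.076), Taldo1 (-0.01) and Gpx3 (-0.11), and with arrays centred Gsr (0.21) and Pgd (0.27). Leaving out 1 sample turned Pgd to 0.056, 0.027 and 0.019 (without PBS replicate 3, PBS replicate 4 and SP replicate 1), Sod3 to 0.047 (without SP replicate 3) and Gpx3 to -0.23 and -0.33 (without PBS replicate 3 and SP replicate 4), and over all left-out samples these 3 genes ranged from -0.11 to 0.056, from -0.74 to 0.047 and from -0.33 to 0.28. The number of genes past the threshold, 22, was 19 to 26 under the alternatives that kept all samples and 18 to 23 with 1 sample left out. Genes called at least 2-fold numbered 5 to 7 higher and 4 lower with 1 sample left out, the 5 without PBS replicate 1 or SP replicate 3. For the further genes these ranges were 7 to 8 higher and 20 to 23 lower. Tested against a 2-fold difference by limma treat, 2 genes were higher (Sod2, Hmox1) and 3 lower (Ephx1, Cat, Me1), and of the further genes 5 were higher and 10 lower, since this test asks for more than a difference from 0. Nfe2l2 was at an adjusted p of 0.296 under another quantile normalization and 0.106 with the replicate block. Samples numbered 3 deviated together to some extent (r = 0.35), while r was 0.016, 0.030 and -0.27 for replicates 1, 2 and 4. The numbers were not taken as pairs, and with the replicate block 21 genes passed. With 1 array per sample, small differences such as that of Nfe2l2 are near the limit of what 4 samples per group resolve.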
